A study of Mus musculus with 4 samples.

Results

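Astrocyte marker mRNAs were followed in a CPEB3 ribonucleoprotein immunoprecipitation as 10 genes, Gfap, Aqp4, Aldh1l1, Gja1, Gjb6, S100b, Glul, Fgfr3, Acsbg1 and Mlc1, out of 27687 array gene names that could be tested. They were chosen by gene name: every probe outside the control spots that carries one of these names was taken, which gave 17 probes, of which 16 could be tested. Cortex and hippocampus of 8-week-old male C57BL/6 mice were lysed together, and the lysate was held for 3 h with beads bearing either IgG raised against CPEB3 or a control IgG. The RNA on the beads (0.2 ug per sample) was amplified with Cy3 as the label and measured on 1-colour Agilent mouse arrays, in 2 replicate arrays of each precipitate. Both groups share the same tissue, strain, sex and age, and they differ by the antibody. No input array was analysed here, so each value compares one precipitate with the other.

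Astrocytes are the glial cells that take up glutamate and potassium from around synapses, wrap blood vessels with their endfeet and join into networks through gap junctions. Some of their mRNAs are carried into fine processes and translated there. CPEB3 is an RNA-binding protein that binds U-rich elements, mostly in 3' untranslated regions, and regulates translation, and it is best known from neurons. The lysate was a whole-tissue lysate, so the cell that held a given mRNA was not observed. A difference between the precipitates measures neither the number of cells of a type nor the RNA per cell.

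All arrays lay on 1 slide and came from 1 scan, and each row of array positions held 1 antibody, so slide position cannot be told apart from the antibody. Between 68.0% and 73.4% of the 55681 probes were well above background, and the 75th percentile of the signal ran from 353 to 507 units. A level below is log2 of the signal relative to the 75th percentile of its array, and a difference is the mean of CPEB3 IgG minus the mean of control IgG on that scale, with its standard error (SE). It was tested with limma over all 40616 probes that were well above background on at least 2 arrays, and called at a Benjamini-Hochberg adjusted p under 0.05. Separate animals or separate lysates for the replicates are not stated in the labels. The p-values therefore rest on the spread between arrays, which may be technical. Over all probes the median difference was -0.19 and 45.5% of calls were higher. Scaling by the array median moved these to 0.10 and 66.2%, and scaling by spike-in controls to 0.46 and 85.1%, so every direction is relative to the scaling.

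The probes are 60 bases long and are given on the mRNA strand, and a stretch of 30 bases is shown for each of the 7 probes that were called, since the results turn on them. Coordinates are those in the array files, on mm9. Whether a probe lies in an untranslated region was not analysed here. In the first pair, capitals mark AATAAA, the letters of the canonical polyadenylation signal.
Fgfr3 probe 1, chr5:34079649-34079708, + strand, bases 31 to 60: ttactttccaaaaAATAAAgagataactgg
Aldh1l1 probe 1, chr6:90549091-90549150, + strand, bases 31 to 60: gtcatgtcccccatgAATAAAaattgtgag
The other stretches are the window with the most T in each probe, and capitals mark runs of at least 3 T.
Gja1, chr10:56109814-56109873, + strand, bases 20 to 49: ttgtattctgagTTTaacagtcTTTTagat
Gjb6, chr14:57742226-57742285, - strand, bases 1 to 30: ttcattggacaatatacattgccgattgct
Acsbg1 probe 1, chr9:54453010-54453069, - strand, bases 28 to 57: gtagTTTcaattctaaccactgctcctgtt
Gfap probe 2, chr11:102748864-102748923, - strand, bases 1 to 30: TTTgaggaactgaaacgtgttgtgttcaag
Gfap probe 3, chr11:102752726-102752785, - strand, bases 8 to 37: ctcacaatacaagttgtcccaatacaggct

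T made up 33.3% of the whole Gja1 probe, 26.7% of the Gjb6 probe and 26.7% of Fgfr3 probe 1, which were higher with CPEB3 IgG. It made up 21.7% of Aldh1l1 probe 1, 31.7% of Acsbg1 probe 1, 31.7% of Gfap probe 2 and 18.3% of Gfap probe 3, which were lower. Both ranges overlap, and the median over 55539 distinct probe sequences was 28.3%. AATAAA on the mRNA strand was in 2 of the 17 probes, 1 called higher and 1 called lower, and in 10.1% of all probes. On the opposite strand it was in 0 of the 17 and in 3.73% of all probes. The letters TTTTAT, a cytoplasmic polyadenylation element, were on the mRNA strand of 0 of the 17 probes and of 3.68% of all probes. On the opposite strand they were in 1 probe, Aldh1l1 probe 1, where they overlap the AATAAA shown above, and in 5.24% of all probes. TTTTAAT was in 0 of the 17 on either strand, against 0.909% and 1.34% of all probes. TTTTT was on the mRNA strand of 0 of the 17 and of 10.2% of all probes, and on the opposite strand of 2 of the 17 and of 10.7% of all probes. These are letters within a probe and say nothing of the rest of the mRNA.

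The 10 marker mRNAs did not move together. At the brightest probe of each gene, Gja1, Gjb6 and Fgfr3 were higher with CPEB3 IgG, Aldh1l1 and Acsbg1 were lower, and Gfap, Aqp4, S100b, Glul and Mlc1 were not called. That is 3 of 10 higher and 2 of 10 lower, where 18.1% and 18.6% of the 27687 genes were called higher and lower. Over the 16 probes, 3 were higher, 4 lower and 9 not called, beside 15.8% and 18.9% of all probes. The median difference was 0.31 over the 10 brightest probes, beside -0.14 over all genes, and it was -0.13 over the 16 probes, beside -0.19 over all probes.

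**Figure D1:**
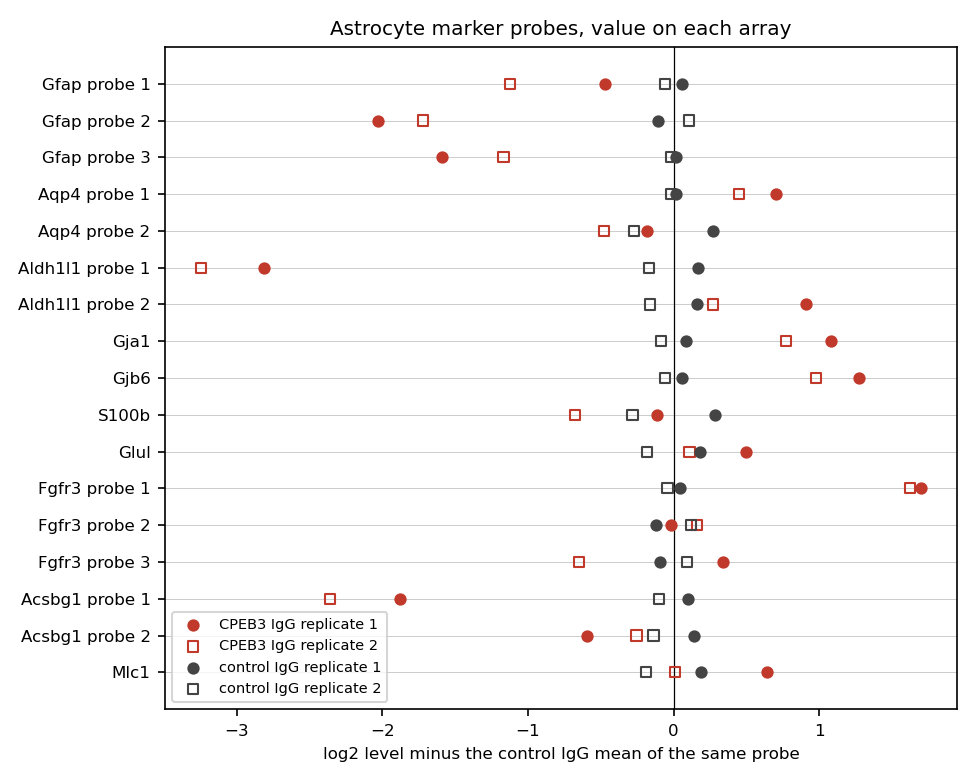
Level of each of the 17 astrocyte marker probes on each array (horizontal axis, log2, minus the mean of the 2 control IgG arrays at the same probe; filled circles replicate 1, open squares replicate 2, red CPEB3 IgG, grey control IgG). Both CPEB3 IgG arrays lie to the right of both controls for Gja1, Gjb6 and Fgfr3 probe 1 and far to the left for Aldh1l1 probe 1 and Acsbg1 probe 1, while S100b, Glul and Mlc1 overlap.

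Both gap junction markers were higher with CPEB3 IgG. Gja1 encodes connexin 43, the main gap junction protein of astrocytes. Its probe is printed in 10 spots, which differed by a log2 SD of 0.079 to 0.12 within an array. The levels were 0.63 and 0.32 in the CPEB3 IgG precipitates, replicate 1 first here and below, against -0.37 and -0.54 in the controls. Both CPEB3 IgG arrays were above both controls, and the difference was 0.93 ± 0.19 (SE, n = 2 arrays per group), or 1.90-fold higher (limma adjusted p = 0.0274). The call was lost when any 1 array was left out, and also without the filter on dim probes (limma adjusted p = 0.0622). The difference stayed between 0.77 and 1.58 over 14 other settings.

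Gjb6 encodes connexin 30, which astrocytes make beside connexin 43. Its levels were 3.63 and 3.34 with CPEB3 IgG, against 2.42 and 2.30 with control IgG. The groups did not overlap, and the difference was 1.13 ± 0.19, or 2.18-fold higher (limma adjusted p = 0.0158). It ran from 0.98 to 1.78 over the other settings, and the call was lost without CPEB3 IgG replicate 1, without CPEB3 IgG replicate 2 or without control IgG replicate 2 (adjusted p up to 0.0756).

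Among 9 other gap junction and pannexin genes, 4 were higher, 0 were lower and 5 were not called by limma (median 0.37), and 1 was lower at an unadjusted p under 0.05. Beside this list and each list below stand 18.1% of all genes called higher and 18.6% called lower. Gjd2, which encodes the connexin 36 of neuronal electrical synapses, rose from -1.95 and -2.34 with control IgG to 1.76 and 0.83 with CPEB3 IgG, a difference of 3.44 ± 0.37 (limma adjusted p = 0.00688). Gjb1, the connexin 32 of oligodendrocytes, differed by 1.51 ± 0.17 (limma adjusted p = 0.00742). Both of these belong mainly to cells other than astrocytes.

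Fgfr3 encodes a fibroblast growth factor receptor that marks astrocytes and their precursors. At probe 1, position 4176 of its RefSeq transcript, the levels were 4.12 and 4.04 under CPEB3 IgG and 2.46 and 2.37 under control IgG. The groups stood apart with a difference of 1.66 ± 0.16, or 3.16-fold higher (limma adjusted p = 0.00580), rank 1715 of 27687 genes from the top. It was called in all 14 other settings, between 1.54 and 2.32.

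A second Fgfr3 probe at position 2558 of the same transcript, 1793 bases upstream on the genome (chr5:34077856-34078090), gave another picture. Its levels were -1.81 and -1.63 with CPEB3 IgG, against -1.91 and -1.67 with control IgG, a difference of 0.07 ± 0.18 (limma adjusted p = 0.792), and the groups overlapped. The third Fgfr3 probe (chr5:34074696-34074755), matched to an Ensembl transcript, was not well above background on any array and has no test. The difference of probe 1 exceeded that of the second probe by 1.59 ± 0.23 within arrays (limma over 12929 such pairs of probes, adjusted p = 0.0317).

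Among 7 other fibroblast growth factor receptors and ligands, 3 were higher, 0 were lower and 4 were not called by limma (median -0.37), with 0 lower also at an unadjusted p under 0.05. The lowest differences of this list, -2.76 and -2.68, were among those not called. There the control IgG arrays stood far apart (log2 SD 2.95 and 2.88), so the count of 0 does not show that no gene was lower. Fgfr1, a receptor of the same family, differed by 1.90 ± 0.20 (limma adjusted p = 0.00675), and its other probes by 0.92 ± 0.17 (adjusted p = 0.0213) and 0.76 ± 0.28 (adjusted p = 0.102). Fgfrl1, a related receptor without a kinase domain, differed by 1.45 ± 0.24 (limma adjusted p = 0.0154), a call lost without either CPEB3 IgG array.

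The called markers that were lower at their brightest probe, Aldh1l1 and Acsbg1, both encode metabolic enzymes. Aldh1l1 encodes the 10-formyltetrahydrofolate dehydrogenase of folate metabolism, and its promoter is widely used to label astrocytes. Probe 1, at position 3009 of the RefSeq transcript, read 1.85 and 1.42 under CPEB3 IgG and 4.84 and 4.50 under control IgG. Both CPEB3 IgG arrays lay far below both controls, with a difference of -3.03 ± 0.24 (95% interval -3.67 to -2.39), or 8.17-fold lower (limma adjusted p = 0.00527). That is rank 27467 of 27687 genes from the top and below the 1st percentile of all probes (-2.78). It was called in all 14 other settings, between -3.25 and -2.38.

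The second Aldh1l1 probe lies 937 bases downstream (chr6:90550028-90550087) on an Ensembl transcript. It read -1.11 and -1.76 with CPEB3 IgG, against -1.86 and -2.19 with control IgG. Here the CPEB3 IgG arrays were above the controls by 0.59 ± 0.29, which was not called (limma adjusted p = 0.180). Within arrays probe 1 changed by -3.62 ± 0.19 relative to the second probe (limma over pairs, adjusted p = 0.0222), so these probes cannot be given as 1 value for the gene.

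Acsbg1 encodes a long-chain acyl-CoA synthetase of the bubblegum family. Probe 1, at position 2509 of the RefSeq transcript, read 2.37 and 1.89 under CPEB3 IgG and 4.35 and 4.15 under control IgG. The groups did not overlap, and the difference was -2.12 ± 0.23, or 4.34-fold lower (limma adjusted p = 0.00706), rank 26926 of 27687 from the top. It was called in all 14 other settings, between -2.36 and -1.46.

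The other Acsbg1 probe, 41051 bases upstream on the genome (chr9:54494061-54494120), was matched to an Ensembl transcript. It read -2.78 and -2.44 with CPEB3 IgG, against -2.05 and -2.33 with control IgG, a difference of -0.42 ± 0.21 (limma adjusted p = 0.191). The CPEB3 IgG arrays were below the controls, and spike-in scaling turned the sign (0.23). Probe 1 changed by -1.69 ± 0.34 relative to this probe, which did not pass over the pairs (limma adjusted p = 0.0519) but did with normexp, quantile scaling or a filter on all 4 arrays (adjusted p down to 0.0217).

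Of 13 further genes of astrocyte metabolism and lipid transport, 3 were higher, 6 lower and 4 not called (median -0.82). Cbs, which makes cystathionine from homocysteine, differed by -2.69 ± 0.17 (limma adjusted p = 0.00527), and Aldoc, the brain aldolase, by -2.26 ± 0.22 (adjusted p = 0.00607). Apoe, the lipid carrier that astrocytes secrete, fell from 5.32 and 5.19 with control IgG to 4.37 and 4.18, a difference of -0.98 ± 0.17 (limma adjusted p = 0.0180), a call lost under median or spike-in scaling and without either CPEB3 IgG array or control IgG replicate 1. Others of the list were higher. Slc2a1, the glucose transporter GLUT1 of astrocytes and endothelium, differed by 2.90 ± 0.26 (limma adjusted p = 0.00550), and Acsl3, another acyl-CoA synthetase, by 1.96 ± 0.20 (adjusted p = 0.00633).

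**Figure D2:**
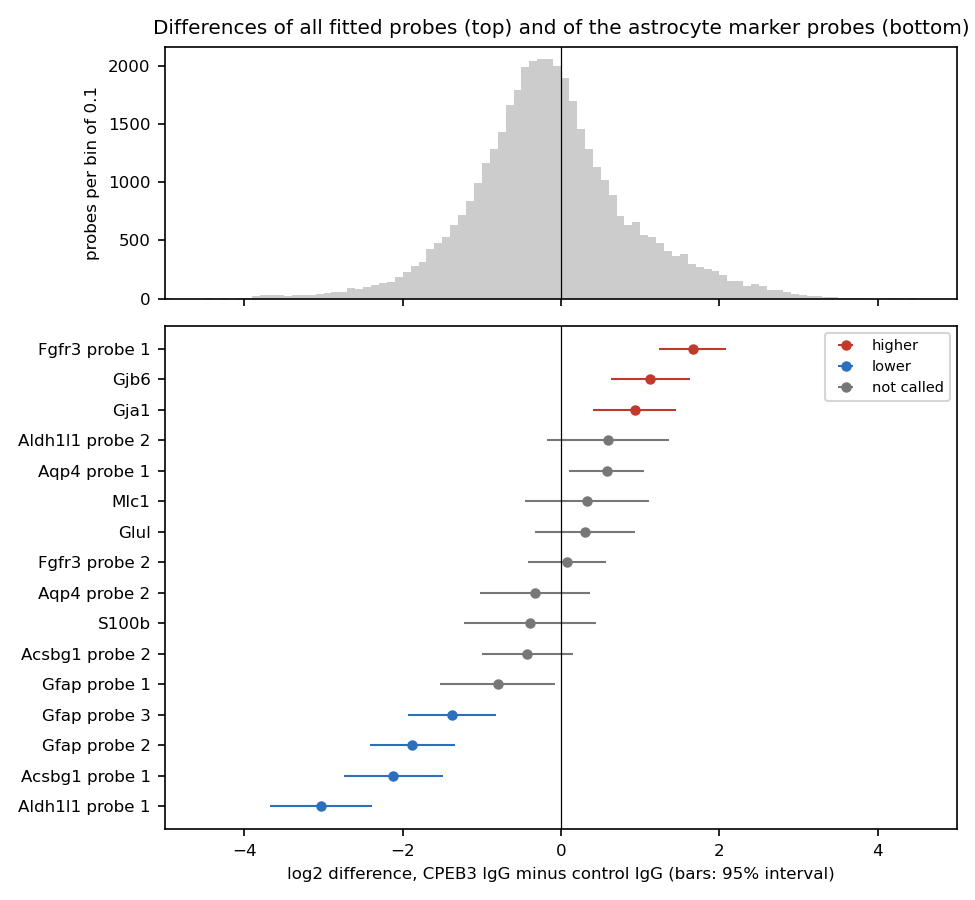
Top, number of fitted probes per bin of 0.1 in the log2 difference of CPEB3 IgG minus control IgG, over all 40616 probes. Bottom, the same difference for the 16 fitted astrocyte marker probes with 95% intervals (red higher, blue lower, grey not called), from Aldh1l1 probe 1 at -3.03 to Fgfr3 probe 1 at 1.66.

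Gfap encodes glial fibrillary acidic protein, the intermediate filament that gives astrocytes their classical stain. It has 3 probes, and all were lower with CPEB3 IgG on both arrays, but the brightest was not called. Probe 1 (chr11:102751813-102751872), on transcript variant 1, read 1.98 and 1.33 under CPEB3 IgG and 2.51 and 2.39 under control IgG, a difference of -0.80 ± 0.27 (limma adjusted p = 0.0857). Normexp background correction, quantile scaling and an intensity trend in the variance prior each brought it under the threshold, and its difference ran from -1.12 to -0.14.

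Gfap probe 2, on transcript variant 2 and 2949 bases downstream, read -0.46 and -0.15 with CPEB3 IgG, against 1.46 and 1.68 with control IgG. The groups were well apart, with a difference of -1.88 ± 0.20, or 3.67-fold lower (limma adjusted p = 0.00672). Of the other settings only spike-in scaling lost the call, at -1.22.

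Gfap probe 3, 913 bases upstream of probe 1 on variant 1, was near the dim end and read -4.28 and -3.86 under CPEB3 IgG and -2.67 and -2.71 under control IgG. It differed by -1.38 ± 0.21, or 2.60-fold lower (limma adjusted p = 0.0131). The call was lost with spike-in scaling and without CPEB3 IgG replicate 1, and the difference ran from -1.59 to -0.54. Within arrays the change of probe 1 differed from that of probe 2 by 1.08 ± 0.40 (95% interval -0.05 to 2.20, limma over pairs, adjusted p = 0.157) and from that of probe 3 by 0.58 ± 0.42 (adjusted p = 0.403). Unequal change of the variants was therefore not shown.

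Of 3 other filament genes, 0 were higher by limma (0 also at an unadjusted p under 0.05), 2 were lower and 1, Nes, was not called at 0.13. Vim, the vimentin that assembles with Gfap, differed by -1.16 ± 0.23 (limma adjusted p = 0.0247). Synm, a large filament protein, differed by -1.11 ± 0.21 (limma adjusted p = 0.0226), and of its other 4 probes 1 was called, at -1.12, with the rest between -0.47 and 0.15. The calls of Vim and of Synm were each lost in 7 of the settings, among them median scaling and leaving out CPEB3 IgG replicate 1, CPEB3 IgG replicate 2 or control IgG replicate 1.

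Aqp4 encodes the water channel of astrocyte endfeet. Its brightest probe, at position 4974 of the transcript, read 0.65 and 0.39 with CPEB3 IgG, against -0.04 and -0.07 with control IgG. The CPEB3 IgG arrays were above the controls by 0.57 ± 0.18, which was not called (limma adjusted p = 0.0676), and it was called under median scaling, with a filter on all 4 arrays and with an intensity trend. The probe at position 1561 read -0.20 and -0.50 against 0.25 and -0.29, overlapping, with a difference of -0.33 ± 0.26 (limma adjusted p = 0.369). The change of these probes differed by 0.91 ± 0.25 within arrays (limma over pairs, adjusted p = 0.0937).

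Mlc1 encodes a membrane protein of perivascular astrocyte processes. It read 4.34 and 3.71 under CPEB3 IgG and 3.89 and 3.51 under control IgG. The groups overlapped, and the difference was 0.32 ± 0.29 (limma adjusted p = 0.429), within the spread between these arrays.

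Among 11 further genes of endfoot water, potassium and adhesion, 2 were higher, 1 was lower and 8 were not called (median 0.12). Dag1, the dystroglycan that anchors endfeet to the basal lamina, went from 0.56 and 0.27 with control IgG to 3.25 and 3.42 with CPEB3 IgG, a difference of 2.92 ± 0.19 (limma adjusted p = 0.00527). Atp1b2, a sodium pump subunit of astrocytes, differed by 1.95 ± 0.18 (limma adjusted p = 0.00561). Dtna, the alpha-dystrobrevin that binds the dystroglycan complex inside the cell, differed by -1.49 ± 0.21 (limma adjusted p = 0.0113), a call lost with spike-in scaling and without CPEB3 IgG replicate 1. Kcnj10, the potassium channel Kir4.1, differed by 0.73 ± 0.36 and was not called (limma adjusted p = 0.181).

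Glul encodes glutamine synthetase, which turns the glutamate taken up by astrocytes into glutamine. It read 7.37 and 6.98 with CPEB3 IgG, against 7.06 and 6.69 with control IgG. The groups overlapped, and the difference was 0.30 ± 0.24 (95% interval -0.33 to 0.94, limma adjusted p = 0.368).

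Of 6 genes of glutamate and GABA uptake, 4 were higher, 0 were lower and 2 were not called by limma (median 1.37), with 0 lower also at an unadjusted p under 0.05. Slc1a3, the glutamate transporter GLAST, read 6.20 and 5.35 under CPEB3 IgG and 2.90 and 2.33 under control IgG, and it differed by 3.16 ± 0.38 (limma adjusted p = 0.00809). Slc6a11, the GABA transporter GAT3, differed by 1.47 ± 0.37 (limma adjusted p = 0.0415), a call lost without either CPEB3 IgG array or without control IgG replicate 2. Slc1a2, the glutamate transporter GLT-1, differed by 0.49 ± 0.22 and was not called (limma adjusted p = 0.159), and its other probes gave -0.10 and -0.29.

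S100b encodes a calcium-binding protein of astrocytes, which some oligodendrocytes also make. It read 4.85 and 4.29 with CPEB3 IgG, against 5.25 and 4.69 with control IgG. The groups overlapped, and the difference was -0.40 ± 0.31 (95% interval -1.23 to 0.44, limma adjusted p = 0.370), with the sign turned by spike-in scaling (0.26).

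The last list held 18 regulators and surface markers of astrocytes, of which 6 were higher, 1 was lower and 11 were not called (median 0.23). Sox9, a transcription factor of astrocyte identity, differed by 1.23 ± 0.19 (limma adjusted p = 0.0133), and P2ry1, a purinergic receptor, by 1.65 ± 0.26 (adjusted p = 0.0143). Both calls were lost without CPEB3 IgG replicate 1. Ndrg2, a cytosolic astrocyte protein, differed by -1.83 ± 0.22 (limma adjusted p = 0.00852), which spike-in scaling reduced to -1.18 and no longer called. Over all 7 lists, 22 of 67 genes were higher, 10 were lower and 35 were not called (median 0.13), beside 18.1% higher and 18.6% lower over all genes. Markers of other cells were also called in these arrays: 1 of 12 neuronal markers higher and 4 lower, and 2 of 10 oligodendrocyte markers higher and 3 lower, while 3 of 10 microglial markers were lower. Their part in the values of the astrocyte genes was not tested.

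**Figure D3:**
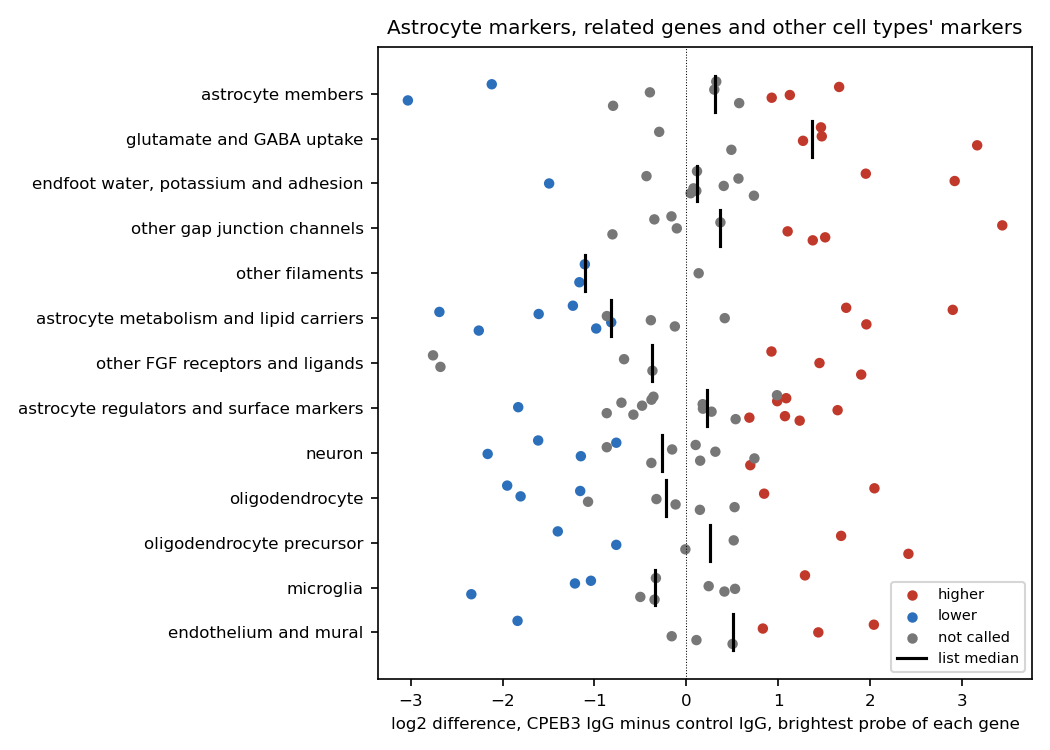
Log2 difference of CPEB3 IgG minus control IgG (horizontal axis) at the brightest probe of each gene, by gene list, with the list median as a bar (red higher, blue lower, grey not called). The 10 astrocyte markers in the top row spread from -3.03 to 1.66, and their median of 0.31 lies between the medians of glutamate and GABA uptake (1.37) and of metabolism and lipid carriers (-0.82).

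Of 6 pairs of probes within the member genes, 2 differed in their change, those of Aldh1l1 and Fgfr3, where 14.9% of all 12929 pairs did. These calls were lost without the filter on dim probes and when any 1 of the 4 arrays was left out (adjusted p up to 0.140 and 0.153), while the pair difference stayed between -3.87 and -3.33 for Aldh1l1 and between 1.26 and 1.75 for Fgfr3. Scaling by 1 number per array cancels within a pair, so the percentile, median and spike-in scalings give the same pair differences.

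**Figure D4:**
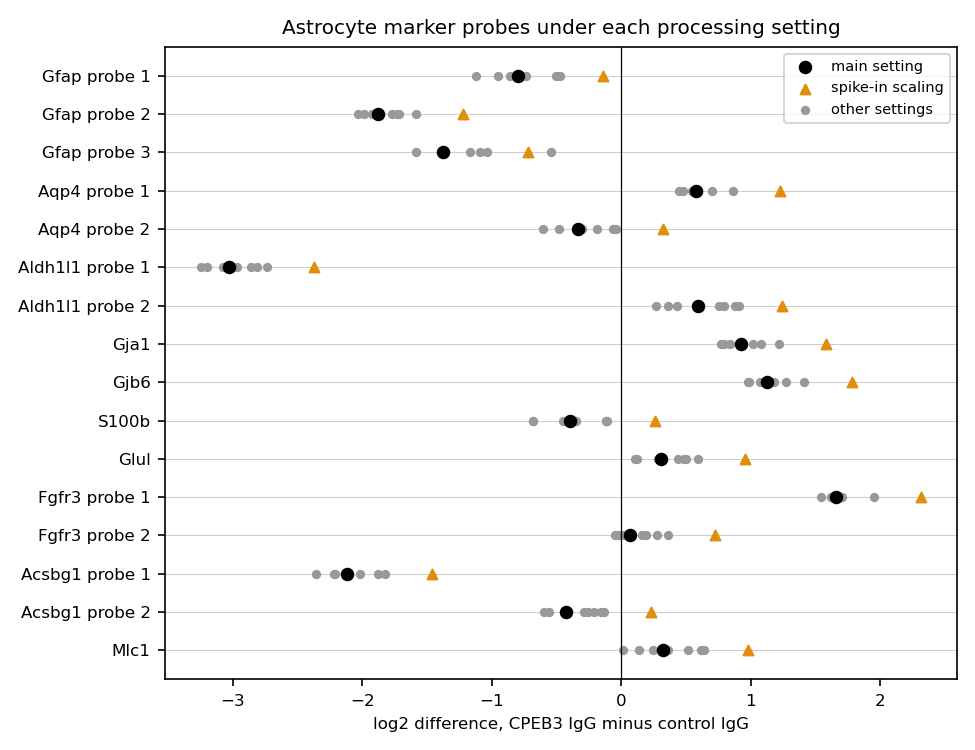
Log2 difference of CPEB3 IgG minus control IgG (horizontal axis) of each fitted astrocyte marker probe in the main setting (black), under spike-in scaling (orange triangles) and under the other settings (grey). Aldh1l1 probe 1, Acsbg1 probe 1 and the 3 Gfap probes stay below 0, and Gja1, Gjb6 and Fgfr3 probe 1 stay above 0, in each setting drawn.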

How the data were processed

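Spots were read by the authors with Feature Extraction 10.5.1.1 and deposited as Cy3 intensity, per the file headers. The deposited processed intensity has background subtracted within each array and no scaling across arrays, per the file headers. Mean and background intensities, also deposited, served 1 alternative. Probe positions on mm9 are those deposited in the files.

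Control and outlier spots were left out, spots of a probe were averaged, and log2 signals were taken relative to the 75th percentile of each array. All probes that passed the background flag on 2 or more of 4 arrays entered limma 3.58.1 (R 4.3.3), using lmFit then eBayes without a block and Benjamini-Hochberg adjustment over all 40616. The brightest probe of a gene minus each other probe was fitted over 12929 pairs. The fit was tested on simulated data. Symbols were updated through RefSeq accessions with a GRCm38 table, which matched 27509 probes and renamed 2017, 0 of them members.

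The members and the lists (uptake, endfoot, gap junction, filaments, metabolism, FGF, regulators, and the markers of other cells) were chosen with earlier results of these data known. All members are named. From each other list, the up to 2 higher and 2 lower called genes with the largest differences are named, or the gene with the smallest p where none was called, and Slc1a2, Slc1a3, Kcnj10, Apoe and Vim always. A result that the rule takes is not reported here. Nes and single further probes were named after their values were seen. Alternatives were normexp (offset 50), quantile, median and spike-in scaling, other filters, a variance trend, a replicate block, 1 probe per gene, adjusted p 0.01 and leaving out each array. Replicate arrays shared 0 identical values.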

Additional observations from a re-analysis of the deposited data

How the results depend on the processing

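Of the member probes, 3 were higher and 4 lower. At adjusted p 0.01, 1 probe and 1 gene were higher, and leaving out each array in turn left 1 to 2 probes and 1 to 2 genes higher. Spike-in scaling left 2 probes lower, and with 1 probe per gene 2 of the 10 were lower. Of the 67 genes in the related lists, 22 were higher and 10 lower. Adjusted p 0.01 left 8 higher and 4 lower, leaving out each array 9 to 17 higher and 4 to 11 lower, median scaling 6 lower and spike-in scaling 4 lower. The calls of Aldh1l1 probe 1, Acsbg1 probe 1 and Fgfr3 probe 1 were made in all 14 other settings. No called member turned its sign.

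Over all probes, 6421 were higher and 7696 lower. Without CPEB3 IgG replicate 1 these were 2346 and 2077, and without CPEB3 IgG replicate 2 they were 2969 and 2769. Without control IgG replicate 1 they were 4303 and 4496, and without control IgG replicate 2 they were 4682 and 5377. At adjusted p 0.01 they were 2735 and 2016. Spike-in scaling gave 6280 higher and 1096 lower, median scaling 8439 and 4316. Without a filter on dim probes 4648 were higher and 4704 lower. A replicate block gave 6865 and 8984, with 3 member probes higher and 4 lower. Among the genes named it changed 1 call: Kcnj10, at 0.73, was then called (limma adjusted p = 0.0351). Same-numbered arrays deviated together (correlation 0.36 over 40616 probes), but with only 2 numbers this does not show a pairing. The cause of these changes was not tested. Of the 17 member probes, 1 was too dim to test, and the number of arrays limits all others.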

Other observations

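The same fit held markers of the other cells in the lysate, and the neuronal, oligodendrocyte, precursor and vascular lists each had genes called in both directions. Over all genes 18.1% were called higher and 18.6% lower, and no list was tested against these shares. Of 12 neuronal markers, 1 was higher, 4 were lower and 7 were not called. Nefl, the light neurofilament, differed by -2.16 ± 0.16 (limma adjusted p = 0.00527), and Eno2, the neuronal enolase, by -1.61 ± 0.26 (adjusted p = 0.0145). The higher gene was Rbfox3, the splicing factor NeuN, at 0.70 ± 0.16 (limma adjusted p = 0.0353), yet its other probes were lower, at -1.59 and -1.63, so its brightest probe does not stand for the gene. Of 10 oligodendrocyte markers, 2 were higher and 3 lower. The myelin protein Mal differed by 2.05 ± 0.21 (limma adjusted p = 0.00625) and the tight junction protein Cldn11 by 0.85 ± 0.20 (adjusted p = 0.0356), while Ermn differed by -1.95 ± 0.27 (adjusted p = 0.0110, with another probe at 0.19) and the myelin enzyme Cnp by -1.80 ± 0.22 (adjusted p = 0.00858).

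Of 6 markers of oligodendrocyte precursors, 2 were higher and 2 lower. The growth factor receptor Pdgfra differed by 2.42 ± 0.17 (limma adjusted p = 0.00527) and the receptor Gpr17 by 1.68 ± 0.29 (adjusted p = 0.0172), against -1.40 ± 0.16 for the transcription factor Sox10 (adjusted p = 0.00714) and -0.76 ± 0.20 for Olig1 (adjusted p = 0.0484). Of 10 microglial markers, 3 were lower. The calcium-binding protein Aif1 differed by -2.34 ± 0.24 (limma adjusted p = 0.00646) and the complement gene C1qa by -1.21 ± 0.23 (adjusted p = 0.0208). Of 7 fitted endothelial and mural markers out of 8, 3 were higher and 1 lower. The pericyte receptor Pdgfrb differed by 2.04 ± 0.20 (limma adjusted p = 0.00595) and the endothelial cadherin Cdh5 by 1.44 ± 0.22 (adjusted p = 0.0135), against -1.84 ± 0.37 for Rgs5, a mural cell gene (adjusted p = 0.0254). The calls of Eno2, Rbfox3, Cldn11, Ermn, Olig1, Gpr17, C1qa, Cdh5 and Rgs5 were each lost when at least 1 of the arrays was left out. Spike-in scaling lost the calls of Cnp (-1.15, adjusted p = 0.151), Sox10 (-0.75, adjusted p = 0.408), Eno2, Ermn, C1qa, Rgs5, Olig1 and Rbfox3, and median scaling lost that of Olig1. Without the filter on dim probes the calls of Rbfox3, Cldn11, Olig1 and Rgs5 were lost.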
